A study of Mus musculus with 12 samples.

Results

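Vehicle-treated liver was compared with vehicle-treated skin CX3CR1+ cells, which takes 6 of the 12 libraries of the series, 3 of each kind. The libraries were chosen by their labels, and the 6 libraries from mice given carbon tetrachloride (CCl4) are not described. The liver libraries came from C57 mice given vehicle and were sequenced as bulk RNA. Their labels say liver, while the study's design text speaks of hepatocytes. The skin libraries came from CX3CR1+ cells of the back skin of Cx3cr1-creER:Ai9 mice given vehicle, and were made by smart-seq, which amplifies whole cDNA from few cells. In such mice the Cx3cr1 gene drives a Cre recombinase that tamoxifen switches on, and the Ai9 allele yields a red fluorescent protein in cells where Cre has acted and in their descendants. By that design the red label marks cells that used the Cx3cr1 gene while tamoxifen was present, and their descendants, whatever their present use of it. The design text gives 3 biological replicates per group. What the vehicle was, its dose and timing, the sex and age of the mice, any pooling, the use of tamoxifen and the way the skin cells were sorted are not stated in the labels or design text used here. Strain, tissue, cell purification and assay all change together between both groups, so their parts in any difference cannot be told apart.

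Hepatocytes make up most of the liver's mass. They secrete most plasma proteins and run gluconeogenesis, the urea cycle, bile acid synthesis and the breakdown of drugs, under a network of transcription factors led by HNF4A and the C/EBP and HNF1 families. CX3CR1 binds the chemokine fractalkine, and in skin it is found on macrophages, some dendritic cells, monocytes and some lymphocytes. Mononuclear phagocytes depend on the factor PU.1, sense microbes and debris, degrade what they engulf in lysosomes, and show its peptides to T cells on MHC class II molecules. The comparison therefore set the gene program of a metabolic organ after vehicle beside that of skin cells labelled CX3CR1+ after vehicle.

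Gene levels were given as TPM, transcript levels scaled for transcript length and to the same total in every library, so that sequencing depth is unknown. The 12864 genes that reached 1 TPM in 3 or more of the 6 libraries were tested with limma on log2(TPM + 1). A gene near 0 in one group passed that filter only through the other group, where it had to differ, so the counts over tested members below describe the lists and support no statement beyond the genes named. Genes were called where the Benjamini-Hochberg adjusted p was below 0.05, and differences below are on that log2 scale, which understates those of low genes. Of the 12864 genes, 1756 (13.7%) were higher in liver and 6127 (47.6%) higher in skin, and the libraries of both groups did not overlap for 9024 genes (70.1%), with liver above for 16.1% and skin above for 54.1%. Either direction was called for 61.3%, and 65.4% had an unadjusted p under 0.05. A called difference of 3 log2 units or more was seen for 731 genes (5.68%) higher in liver and 1997 (15.5%) higher in skin. The median difference over all tested genes was -1.17 (liver minus skin). TPM sum to the same total in every library, so that abundant genes lower all others on this scale. With median-ratio scaling the median was -0.05 and the split was 3358 (26.1%) to 3645 (28.3%). With quantile normalization the median was 0.01 and the split 3508 (27.3%) to 3303 (25.7%). With TPM rescaled after leaving out mitochondrially encoded and the most abundant genes the median was -0.83 and the split 2110 (16.4%) to 5224 (40.7%). A call is described as held when the gene was called in the same direction under TPM and each of these 3 other scalings that kept it, which was so for 1754 genes (13.6%) higher in liver and 3195 (24.8%) higher in skin.

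The liver libraries resembled each other more than the skin libraries did. The median standard deviation of log2(TPM + 1) within a group, over tested genes, was 0.115 in liver and 0.74 in skin, and it was larger in skin for 93.3% of genes. Liver libraries listed 17568 to 17828 genes above 0, skin libraries 21373 to 28870. The 10 most abundant genes of a library took 33.9% ± 0.687 (SD, n = 3) of the TPM in liver and 18.0% ± 4.86 in skin, with no overlap (two-sided exact permutation p = 0.1, the smallest that 3 libraries against 3 allow). Skin replicate 3 stood apart. Its correlation with the other skin libraries over tested genes was 0.801 and 0.783, against 0.915 between those 2, and an unnamed gene (ENSMUSG00002076161) had 80478 TPM there against 284 and 1757 in skin replicates 1 and 2. Malat1, a nuclear RNA, had 932, 1869 and 8717 TPM in the skin libraries, and Krtdap, a keratinocyte gene, 1329, 1048 and 11735. In total, 47 tested genes were listed at 0 in skin replicate 3 and above 1 in both others, against 21 for the same pattern in replicate 1 and 17 in replicate 2. Without skin replicate 3 the calls were 1979 higher in liver and 8114 higher in skin.

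The label of the liver libraries was borne out by hepatocyte markers. All 14 listed markers were higher in liver, and together they took 6.96%, 7.71% and 7.47% of the TPM in liver replicates 1 to 3, against 0.00204%, 0.0122% and 0.00204% in skin. Alb, which encodes serum albumin, had 40168, 45635 and 43342 TPM in liver and 0, 5.28 and 0 in skin, a difference of 14.51 log2 units (SE 0.72, adjusted p = 1.8e-05). Skin replicate 2 held the most of these transcripts among the skin libraries, including 0.1, 92.5 and 0.07 TPM of Apoa1, the main apolipoprotein of high-density lipoprotein, in skin replicates 1 to 3. Markers of other liver cells were present at low level and lay on both sides. Of 12 Kupffer cell markers, 11 were tested, 5 were higher in liver and 4 in skin, and without any 1 liver library, or without skin replicate 1, 3 were higher in liver. Clec4f, the defining lectin of Kupffer cells, the liver's macrophages, had 4.56, 15.9 and 9.37 TPM in liver and was listed at 0 in all skin libraries. Spic, a factor of macrophages that recycle red cells, went the other way, with 0.18, 0.37 and 0.27 TPM in liver and 34.2, 466 and 17.5 in skin, 5.73 log2 units (SE 1.15, adjusted p = 0.0053) higher in skin. Timd4, a receptor for dying cells, had 0.48, 1.53 and 0.75 TPM in liver against 234, 169 and 5.59 in skin, 5.10 log2 units (SE 1.33, adjusted p = 0.0151) higher in skin, a call that was lost without liver replicate 1 (adjusted p = 0.0518) and without skin replicate 1 (0.0583) or 2 (0.0604). Marco, a scavenger receptor named after its values were seen, was also higher in skin, with 1.2, 1.64 and 1.37 TPM in liver and 23.2, 18.5 and 9.12 in skin. Of 8 markers of liver sinusoidal endothelium, 7 were tested, 3 were higher in liver and 1 in skin. Stab2, a scavenger receptor of sinusoidal endothelium, had 2.99, 3.09 and 4.25 TPM in liver and 0.08, 0.35 and 0 in skin. Fcgr2b, an antibody receptor that macrophages also carry, was the one higher in skin, with 9.47, 6.93 and 7.67 TPM in liver against 214, 367 and 433 in skin. Of 9 stellate cell markers, 3 were tested, none was higher in liver (1 without skin replicate 3) and 2 were higher in skin. Lrat, their retinol esterifying enzyme, also named after its values were seen, was too low for the test, with 0.38, 0.26 and 0.34 TPM in liver against 0.03, 0.21 and 0 in skin. The share of such cells in the liver material cannot be read from bulk RNA: fewer cells of a type and less RNA per cell cannot be told apart.

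The skin libraries held most markers of the cells known to carry CX3CR1, but little of Cx3cr1 itself. Of the 21 listed markers of macrophages and other mononuclear phagocytes, 20 were tested and 19 were higher in skin, all of them held. The list took 0.00347%, 0.00735% and 0.00521% of the TPM in liver and 1.65%, 2.81% and 3.74% in skin. Lyz2, the lysozyme of myeloid cells, had 5.35, 9.57 and 7.7 TPM in liver and 7237, 12605 and 15754 in skin, 10.40 log2 units (SE 0.36, adjusted p = 4.54e-06) higher. Fcer1g, the signalling chain shared by Fc receptors, had 2496, 2196 and 4869 TPM in skin against 1.63, 2.07 and 1.9 in liver. Csf1r, the receptor for the growth factor that keeps macrophages alive, had 76.7, 483 and 44.5 TPM in skin and 1.5, 3.18 and 2.27 in liver, 5.20 log2 units (SE 0.86, adjusted p = 0.00237) higher, with skin replicate 2 far above the other skin libraries. Cx3cr1 itself had 3.91, 0.27 and 0.91 TPM in the skin libraries and 0.01, 0.01 and 0 in liver, too low for the test. Mertk, a receptor for dying cells, was the tested marker that was not called, at 1.79, 2.05 and 1.77 TPM in liver and 1.06, 9.25 and 0.74 in skin.

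Markers of several subtypes of skin phagocytes were present. Markers of resident dermal macrophages were higher in skin for 13 of 14 genes. Among them Mgl2, a lectin of skin macrophages and dendritic cells, had 764, 1162 and 1152 TPM, and Pf4, a chemokine abundant in tissue macrophages, 768, 2866 and 4129.9. Mrc1, the mannose receptor, had 91.2, 342 and 33 TPM in skin and 3.37, 2.54 and 2.34 in liver. Cd207, the langerin of Langerhans cells, had 289, 114 and 13.6 TPM in skin and at most 0.22 in liver, 6.13 log2 units (SE 1.04, adjusted p = 0.0026) higher in skin. Ccr7, which guides dendritic cells to lymph nodes, had 1266, 774 and 22.6 TPM and Cd209a, a lectin of dermal dendritic cells, 614, 769 and 564. Skin replicate 3 was the lowest of the skin libraries for Cd207 and Ccr7 and close to the others for Cd209a.

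Markers of other skin cells were present in the same libraries. The list of T, natural killer and innate lymphoid cells took 0.587%, 0.18% and 1.02% of the TPM in skin. Cd3g, a chain of the T cell receptor complex, had 837, 273 and 2808 TPM in skin and was listed at 0 in all liver libraries. Trdc and Tcrg-C1 encode constant regions of the gamma-delta T cell receptor, which epidermal T cells of the mouse carry. Trdc had 487, 90.2 and 316 TPM and Tcrg-C1 679, 184 and 1113, both listed at 0 in liver. The keratinocyte list took 0.198%, 0.367% and 0.162% of the TPM in skin, and 9 of its 16 genes were listed at 0 in all liver libraries. Krt14, a keratin of basal keratinocytes, had 709, 1128 and 348 TPM. Krtdap, a keratinocyte gene outside this list, had 1329, 1048 and 11735 TPM, so that it was highest in replicate 3, where the list was lowest. Fibroblast markers took 0.3%, 0.832% and 0.285%, led by Dcn at 778, 3259.8 and 1001 and Col3a1 at 683, 1643 and 284 TPM. Mast cell markers took 0.00565%, 0.0249% and 0.037% and haemoglobin and other red cell genes 0.0906%, 0.0253% and 0.141%. In each skin library the mononuclear phagocyte list took more than any of these lists. Such sums depend on which genes are listed and on how abundant each is in its cell type, so they do not rank the cell types. The part of the other cell types in the differences below was not tested.

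**Figure D1:**
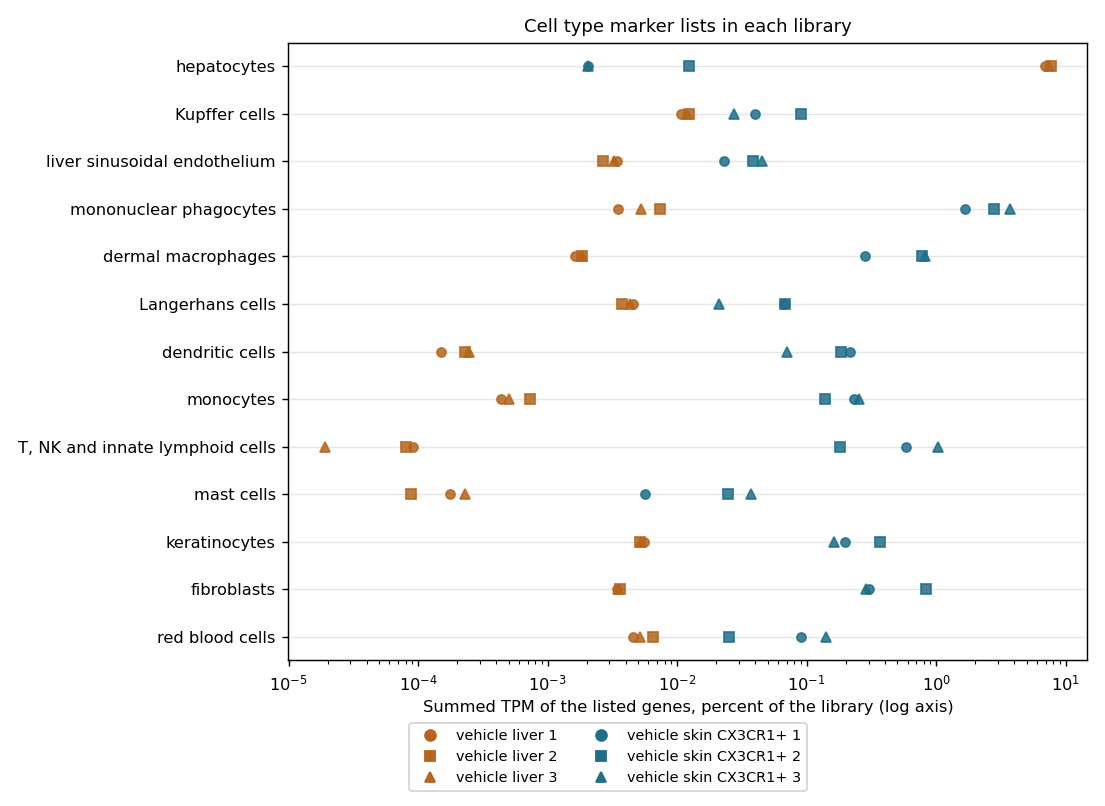
Summed TPM of each cell type marker list, as percent of the library on a log axis, in the 3 liver (brown) and 3 skin (blue) libraries, 1 symbol per replicate. Hepatocyte markers lie near 7% in liver and at 0.012% or less in skin, whereas mononuclear phagocyte markers lie at 1.65% to 3.74% in skin and below 0.01% in liver, and markers of T cells, keratinocytes and fibroblasts are also present in every skin library.

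Transcripts of factors listed for hepatocytes were mostly higher in liver, and those of factors listed for mononuclear phagocytes mostly higher in skin. Of 21 factors listed for hepatocytes, 19 were tested, 16 were higher in liver and all 16 calls held. Hnf4a had 98.4, 112 and 102 TPM in liver and 0, 1.55 and 0 in skin, 6.26 log2 units (SE 0.44, adjusted p = 7.98e-05) higher in liver. Nr1i3, the nuclear receptor CAR that senses foreign compounds, had 55.4, 61.3 and 62.9 TPM in liver and was listed at 0 in all skin libraries (adjusted p = 1.52e-05). Nr0b2, the repressor SHP that curbs bile acid synthesis, had 35.6, 51.7 and 41.4 TPM in liver and was also listed at 0 in skin (adjusted p = 3.15e-05). For these 3 genes every liver library was above every skin library. Xbp1, a factor of the secretory pathway that is used well beyond the liver, went the other way, with 52.4, 90.6 and 74.7 TPM in liver and 326, 327 and 139 in skin, 1.78 log2 units (SE 0.42, adjusted p = 0.00982) higher in skin. That call was lost with median-ratio scaling (adjusted p = 0.272) and with quantile normalization (adjusted p = 0.155).

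Of 23 factors listed for mononuclear phagocytes, all were tested, 17 were higher in skin, 15 of these calls held, and none was higher in liver. Spi1, which encodes PU.1, had 1.16, 1.19 and 0.45 TPM in liver and 195, 397 and 158 in skin, 6.93 log2 units (SE 0.42, adjusted p = 4.59e-05) higher in skin. Relb, a subunit of NF-kappaB needed by dendritic cells, had 0.3, 0.3 and 0.16 TPM in liver against 67.9, 88.9 and 23.6 in skin, 5.41 log2 units (SE 0.53, adjusted p = 0.000276) higher. Zeb2, a factor of macrophage identity, had 0.21, 0.37 and 0.19 TPM in liver against 21.1, 85.1 and 22.5 in skin, 4.82 log2 units (SE 0.58, adjusted p = 0.000634) higher. The median difference of the list was 2.10 towards skin relative to the median of all genes, and that of the hepatocyte list 4.23 towards liver. C/EBP factors, which both cell types use, split by member. Cebpa had 77.8, 80.7 and 83.8 TPM in liver and 10.2, 8.08 and 1.94 in skin, 3.61 log2 units (SE 0.53, adjusted p = 0.00142) higher in liver. Cebpb, which rises in activated macrophages and in the acute phase response of liver, had 41.7, 22.3 and 35.4 TPM in liver against 322, 245 and 456 in skin, 3.32 log2 units (SE 0.35, adjusted p = 0.000381) higher in skin. Within each library Cebpa thus exceeded Cebpb in all 3 livers, and Cebpb exceeded Cebpa in all 3 skin libraries.

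**Figure D2:**
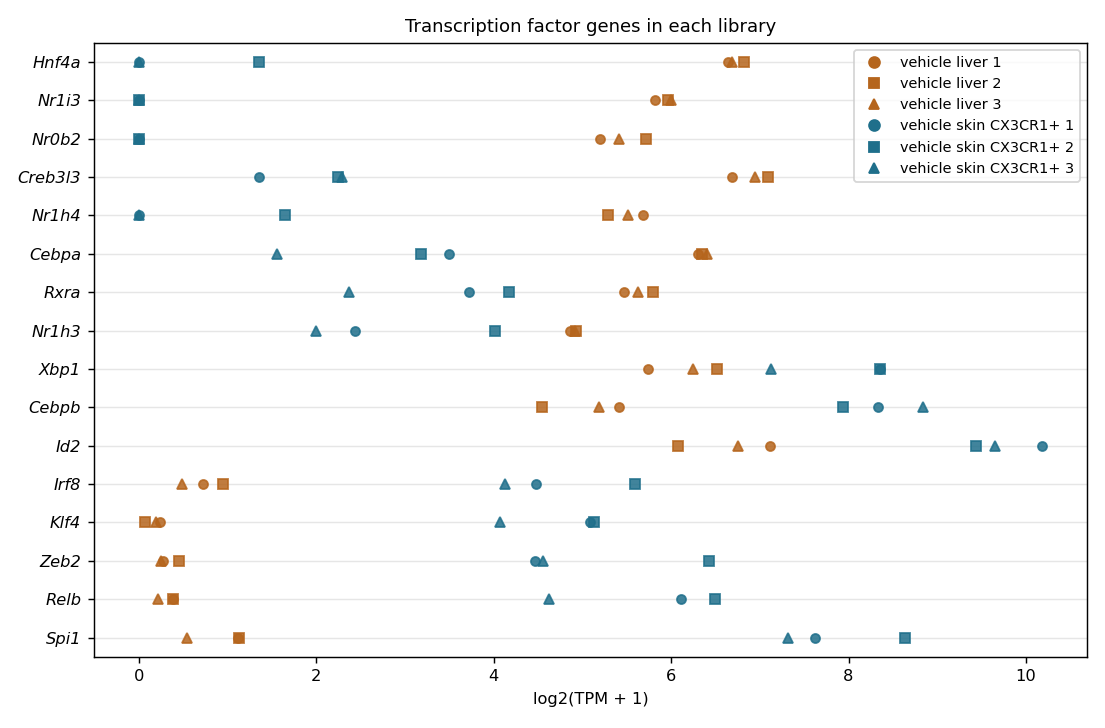
log2(TPM + 1) of 16 transcription factor genes in the 3 liver (brown) and 3 skin (blue) libraries, ordered from genes higher in liver at the top to genes higher in skin at the bottom. Nr1i3 and Nr0b2 are at 0 in all skin libraries and Hnf4a in 2 of them, and Spi1, Relb and Zeb2 are near 0 in liver.

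Promoter sequence was looked at for letters that HNF1, HNF4 and PU.1 are known to bind, because Hnf4a and Spi1 stood on opposite sides. The windows came from RefSeq on GRCm38.p6 and run from 250 bases before a gene's start to 50 bases from it, 300 bases in all. Both strands were searched in 27025 genes. GTTAAT followed by any base and ATT (HNF1) was found in 0.47% of genes, CAAAGTCCA (HNF4) in 0.555%, GAGGAAGT (PU.1) in 3.69% and TATAAA (the TATA box) in 15.7%. Of 14 plasma carrier and inhibitor genes with a window, 2 held the HNF1 letters (14.3%; Afm and Gc), and of 21 coagulation genes 1 did (4.76%; F13b). No macrophage marker of 15 and no MHC class II gene of 9 held them. The PU.1 letters were found in 2 of the 15 macrophage markers (13.3%; C1qc and Ctss), 1 of the 9 MHC class II list genes (11.1%; Ctss again) and 1 of 16 phagocyte transcription factors (6.25%; Rel). They were found in no plasma carrier gene and in 1 coagulation gene (4.76%), F13a1, which was higher in skin. Among 19 hepatocyte transcription factors, 1 held the HNF1 letters (5.26%; Nr5a2) and 1 the PU.1 letters (5.26%; Foxa2). HNF4 letters were found in no gene of the 6 lists searched. A match describes letters, not a bound site, and these counts are small. The windows of 4 matched genes are printed because they carry the contrast between Gc and F13b, which were higher in liver, and C1qc and Ctss, which were higher in skin. Capitals mark the matched letters, which lie on the opposite strand in F13b, C1qc and Ctss, and no matches overlap.
Gc, minus strand, chr5:89457849-89458148, HNF1 letters in capitals starting 52 bases before the start: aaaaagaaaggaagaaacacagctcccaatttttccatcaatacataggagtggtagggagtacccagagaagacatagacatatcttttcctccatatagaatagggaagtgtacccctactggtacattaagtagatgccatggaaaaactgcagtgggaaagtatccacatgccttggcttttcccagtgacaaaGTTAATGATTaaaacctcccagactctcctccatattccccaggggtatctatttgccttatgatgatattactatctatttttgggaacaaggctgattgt
F13b, plus strand, chr1:139501457-139501756, HNF1 letters in capitals starting 55 bases before the start: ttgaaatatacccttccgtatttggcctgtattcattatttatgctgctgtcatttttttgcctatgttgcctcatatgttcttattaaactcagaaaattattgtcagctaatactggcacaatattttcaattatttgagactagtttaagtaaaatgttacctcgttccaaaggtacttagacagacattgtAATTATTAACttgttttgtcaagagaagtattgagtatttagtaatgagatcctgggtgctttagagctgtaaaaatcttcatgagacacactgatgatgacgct
C1qc, minus strand, chr4:136892865-136893164, PU.1 letters in capitals starting 195 bases before the start: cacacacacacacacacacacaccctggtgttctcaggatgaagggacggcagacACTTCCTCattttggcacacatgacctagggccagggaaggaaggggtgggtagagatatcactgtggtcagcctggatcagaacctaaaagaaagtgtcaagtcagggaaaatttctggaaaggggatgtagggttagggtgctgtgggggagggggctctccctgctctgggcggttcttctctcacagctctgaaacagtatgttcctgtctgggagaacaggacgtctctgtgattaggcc
Ctss, plus strand, chr3:95526536-95526835, TATA box letters in capitals starting 233 bases and PU.1 letters 2 bases before the start: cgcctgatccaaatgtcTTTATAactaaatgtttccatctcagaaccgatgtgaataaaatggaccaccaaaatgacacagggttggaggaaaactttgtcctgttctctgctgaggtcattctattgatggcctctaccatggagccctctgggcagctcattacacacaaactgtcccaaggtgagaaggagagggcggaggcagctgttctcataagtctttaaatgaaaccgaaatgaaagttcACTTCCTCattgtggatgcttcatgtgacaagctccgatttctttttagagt

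Genes of secreted proteins were among the most abundant genes of the liver libraries. Of 20 plasma carriers and protease inhibitors, 19 were tested and all 19 were higher in liver and held. Together they took 11.9% ± 0.57 (SD, n = 3) of the TPM in liver and 0.0816% ± 0.0631 (SD, n = 3) in skin. Serpina3k, a serine protease inhibitor, had 7085, 8288 and 7826 TPM in liver and 0.08, 0.19 and 0.24 in skin, 12.69 log2 units (SE 0.21, adjusted p = 1.98e-06) higher in liver. Ttr, the carrier of thyroid hormone and retinol-binding protein, had 5540.2, 6054 and 6024 TPM in liver against 0, 1.06 and 0 in skin, 12.17 log2 units (SE 0.34, adjusted p = 2.45e-06) higher. Gc, the vitamin D binding protein whose promoter is printed above, had 4665, 4735 and 4676 TPM in liver against 0, 0.82 and 0 in skin, 11.91 log2 units (SE 0.31, adjusted p = 1.98e-06) higher. In these genes no skin library reached 2 TPM. Trf, the iron carrier transferrin, had the highest skin level of the list. It had 1512, 431 and 227 TPM in skin against 10965, 12352 and 12148 in liver, 4.48 log2 units (SE 0.65, adjusted p = 0.00143) higher in liver.

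Major urinary proteins, the pheromone carriers that male mouse liver secretes, took 16.9% ± 0.293 (SD, n = 3) of the liver TPM and 0.00786% ± 0.000746 (SD, n = 3) of the skin TPM. Of 21 genes, 19 were tested and all 19 were higher in liver and held. Mup7 had 42436, 43723 and 43194 TPM in liver, the highest mean of any named nuclear gene there, and 2.55, 3.5 and 0.07 in skin. Mup3 had 18005, 17871 and 18048 TPM in liver against 0, 1.27 and 1.5 in skin. These genes, like the Serpina1 genes, are near-identical copies, so that levels of single copies are uncertain while their sum is less so.

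Apolipoproteins, which package lipids for transport, took 6.63% ± 0.225 (SD, n = 3) of the TPM in liver and 0.45% ± 0.336 (SD, n = 3) in skin, and all 13 listed genes were higher in liver. Apoa2, a major protein of high-density lipoprotein, had 15817, 16275 and 16714 TPM in liver and 1.26, 11.2 and 0.22 in skin, 12.30 log2 units (SE 0.80, adjusted p = 5.76e-05) higher. Apoc3, an inhibitor of triglyceride clearance, had 3066, 3477 and 3478 TPM in liver against 0, 3.85 and 0 in skin. Apoe, which macrophages also secrete, stood closer: it had 21415, 22220.5 and 22876 in liver and 1330.5, 3379.7 and 7962 in skin, 2.75 log2 units (SE 0.61, adjusted p = 0.00798) higher in liver. It was the only apolipoprotein gene whose call did not hold. Apoe was called higher in liver with median-ratio scaling (4.11, adjusted p = 0.00632) but not with quantile normalization (2.04, adjusted p = 0.0518). Apoe alone made up most of the skin total of this list.

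Coagulation genes lay on both sides. Of 27 genes, 26 were tested, 19 were higher in liver and 6 in skin. Fgg, the gamma chain of fibrinogen, had 2957, 3282 and 3142 TPM in liver and was listed at 0 in all skin libraries. Fga, the alpha chain, had 2686, 3438 and 3087 TPM in liver against 0.19, 0.12 and 0 in skin, 11.44 log2 units (SE 0.23, adjusted p = 1.98e-06) higher in liver, and Serpinc1, antithrombin, 2284, 2441 and 2434 TPM in liver against 0.76, 0.18 and 0.13 in skin. Plaur, the receptor that holds urokinase on the cell surface, had 0.06, 0.15 and 0.04 TPM in liver and 581, 479.9 and 167 in skin, 8.38 log2 units (SE 0.50, adjusted p = 4.15e-05) higher in skin. F3, tissue factor, which starts clotting, had 0.93, 1.41 and 0.73 TPM in liver against 36.6, 18.2 and 14 in skin, 3.46 log2 units (SE 0.43, adjusted p = 0.000752) higher in skin. The subunits of factor XIII, which crosslinks fibrin, came from opposite sides. F13b, the carrier subunit, shown for its promoter match and chosen after its values were seen, had 118, 125 and 121 TPM in liver and was listed at 0 in all skin libraries (adjusted p = 6.43e-06). F13a1, the catalytic subunit, had 0, 0.01 and 0 in liver and 113, 586 and 66.8 in skin, 7.37 log2 units (SE 0.78, adjusted p = 0.000383) higher in skin.

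Complement genes also lay on both sides. Of 31 genes, 20 were higher in liver and 10 in skin, and their sums overlapped, at 0.699%, 0.738% and 0.737% of the TPM in liver and 0.145%, 0.63% and 0.896% in skin (exact permutation p = 0.7). C3, the central component, had 1859, 1936 and 1960.3 TPM against 10.9, 127 and 5.14, 6.51 log2 units (SE 1.06, adjusted p = 0.00222) higher in liver. The terminal component C9 had 485, 506 and 489 TPM in liver against 0.04, 0.08 and 0 in skin, and the mannose-binding lectin Mbl2 412, 341 and 388 in liver and 0 in all skin libraries. C1qb and C1qc encode chains of C1q, which macrophages make. C1qb had 3.4, 10.2 and 7.23 TPM in liver and 421, 1845 and 4462 in skin, 7.68 log2 units (SE 0.86, adjusted p = 0.000493) higher in skin, and C1qc 2.55, 7.04 and 5.28 TPM in liver against 212, 916 and 2546 in skin. C5ar1, the receptor for the fragment C5a, had 0.03, 0.2 and 0.02 TPM in liver against 117, 467 and 134 in skin, 7.50 log2 units (SE 0.56, adjusted p = 9.81e-05) higher in skin. Skin replicate 2 had the highest C3 of the skin libraries, and without skin replicate 1 the genes higher in liver numbered 13 in place of 20.

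**Figure D3:**
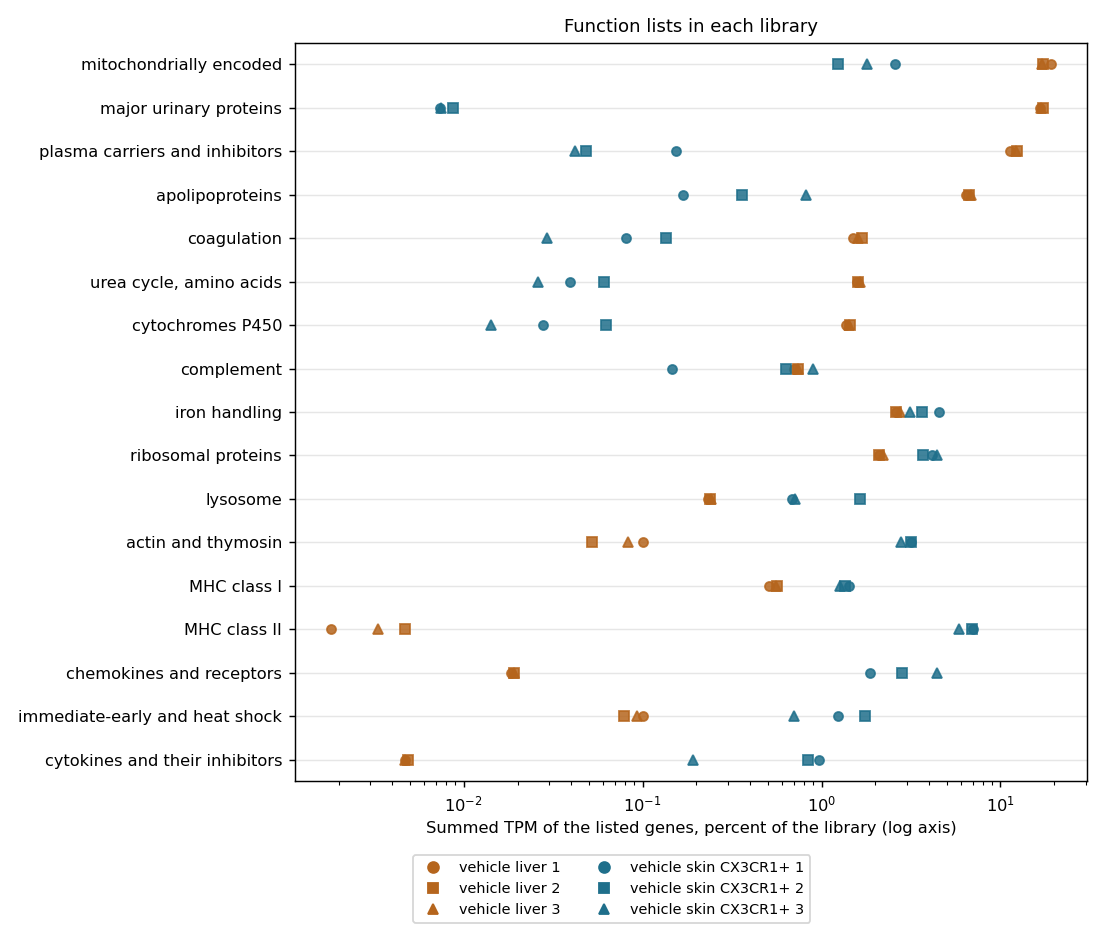
Summed TPM of 17 function lists as percent of each library, on a log axis, for 3 liver (brown) and 3 skin (blue) libraries. Major urinary proteins, plasma carriers and apolipoproteins lead in liver, MHC class II genes, chemokines and cytokines lie far lower in liver than in skin, and the complement sums of both materials overlap.

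Enzymes of drug and steroid metabolism were almost all on the liver side. Of 28 cytochrome P450 genes and their reductase, 27 were tested, 23 were higher in liver and 2 in skin. Cyp3a11, the main drug-oxidising enzyme of its family, had 1936, 1776 and 1844 TPM in liver and 0.42, 0.28 and 0 in skin, 10.57 log2 units (SE 0.25, adjusted p = 1.98e-06) higher in liver. Cyp2c29 had 1476, 1369 and 1443 TPM in liver against 0, 0.37 and 0 in skin, 10.33 log2 units (SE 0.25, adjusted p = 1.98e-06) higher. Cyp1b1 and Cyp4f18 went the other way. Cyp1b1, which acts on hormones and polycyclic hydrocarbons outside the liver, was listed at 0 in all liver libraries and had 8.6, 8.2 and 1.4 TPM in skin (adjusted p = 0.00667). Cyp4f18, which inactivates leukotriene B4 in leukocytes, had 0, 0 and 0.13 TPM in liver against 4.17, 13.9 and 19.9 in skin, 3.49 log2 units (SE 0.53, adjusted p = 0.00172) higher in skin. Conjugation enzymes were higher in liver for 18 of 20 genes and in skin for none, with Gsta3, a glutathione transferase, at 2024, 1546 and 1882 TPM in liver and 4.56, 2.64 and 3.07 in skin.

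Bile acid and nitrogen metabolism showed no member on the skin side. All 19 genes of bile acid synthesis and transport were higher in liver and held. Slc27a5, which activates bile acids for conjugation, had 459, 461 and 470.1 TPM in liver and 0.04, 0.03 and 0 in skin, 8.83 log2 units (SE 0.24, adjusted p = 2.19e-06) higher. Slc10a1, the sodium-driven importer NTCP, had 381, 409.6 and 416 TPM in liver against 0.48, 0.11 and 0.1 in skin, 8.37 log2 units (SE 0.26, adjusted p = 3.04e-06) higher. Of 29 urea cycle and amino acid genes, 27 were higher in liver and none in skin. Bhmt, which remakes methionine from homocysteine, had 2309.9, 2299 and 2359.6 TPM in liver against 0.07, 0.26 and 0.03 in skin, 11.02 log2 units (SE 0.22, adjusted p = 1.98e-06) higher in liver. Tat, which starts tyrosine breakdown, had 916, 832 and 896 and was listed at 0 in all skin libraries. The members not called were Glul, glutamine synthetase, with 68, 92.3 and 78.9 TPM in liver and 64.9, 147 and 112 in skin, and Got1, an aspartate aminotransferase, with 131, 111 and 129 TPM in liver against 251, 363 and 68.2 in skin. Both were named after their values were seen.

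Listed genes of glucose production and of glucose breakdown lay mostly on opposite sides with TPM. All 15 genes of gluconeogenesis, fructose and glycogen metabolism were higher in liver and held, with a median 6.56 above that of all genes. Pck1, which makes phosphoenolpyruvate, had 867, 835 and 838 TPM in liver and 0.68, 0.9 and 0.29 in skin, 9.05 log2 units (SE 0.26, adjusted p = 2.5e-06) higher in liver. Fbp1, fructose-1,6-bisphosphatase, had 520.0, 574 and 567 TPM in liver against 0.12, 0.98 and 0 in skin, 8.73 log2 units (SE 0.33, adjusted p = 6.43e-06) higher. Of 17 glycolysis genes, 12 were higher in skin and none in liver, but 4 were higher in liver and 8 in skin with median-ratio scaling. Over all tested genes 47.6% were higher in skin, and the median of the glycolysis list lay 1.10 towards skin relative to that of all genes. That list included Pkm but left out Pklr, the liver form of pyruvate kinase, so its count depends on its make-up. The ratio of Pklr to Pkm is given below. The 8 that held include Pkm, a pyruvate kinase, with 0.96, 1.5 and 1.47 in liver and 329, 598 and 169 in skin, 7.13 log2 units (SE 0.48, adjusted p = 6.65e-05) higher in skin, and Hk2, a hexokinase, with 0.01, 0.12 and 0.17 TPM in liver against 232, 43.9 and 13.2 in skin, 5.59 log2 units (SE 0.96, adjusted p = 0.00279) higher. Pfkp, a phosphofructokinase, had 0.29, 0.21 and 0.11 TPM in liver against 170.0, 173 and 12.4 in skin, with skin replicate 3 lowest of the skin libraries. Gapdh, which every cell needs, had 1249, 1236 and 1227 in liver and 1941, 1219 and 831 in skin, overlapping, but was called 1.34 higher in liver with median-ratio scaling (adjusted p = 0.0243).

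Lipid metabolism was on the liver side to a lesser degree. Of 22 fatty acid oxidation and ketone genes, 16 were higher in liver and none in skin. Acaa1b, a peroxisomal thiolase, had 279, 241 and 277 TPM in liver against 3.9, 0.39 and 0.11 in skin, 7.08 log2 units (SE 0.58, adjusted p = 0.000135) higher. For 26 genes of fatty acid and cholesterol synthesis, 10 were higher in liver and none in skin, a count that was 20 with median-ratio scaling and 19 with quantile normalization. Scd1, a fatty acid desaturase, had 1766, 2138 and 1897 TPM in liver against 671, 56.9 and 8.7 in skin, 4.74 log2 units (SE 1.40, adjusted p = 0.0244) higher in liver, with skin replicate 1 far above the other skin libraries. The Scd1 call was lost without any 1 liver library, with adjusted p of 0.0653, 0.071 and 0.0616, and without skin replicate 2 (0.0813). Gpam, which starts triglyceride synthesis, had 51.4, 54.8 and 49.9 TPM in liver against 2.21, 1.98 and 0.29 in skin, 4.52 log2 units (SE 0.42, adjusted p = 0.000238) higher in liver.

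Where liver and other tissues use different genes for the same step, the ratio of both genes was taken within each library, as log2(TPM + 1) of the liver form minus that of the other form, for 21 pairs. In the proteasome pairs the first form is the standard subunit, not a liver form, and the other is the immunoproteasome subunit. In 20 pairs the 3 liver values all lay above the 3 skin values (exact permutation p = 0.1 each, the smallest possible, and 0.105 after Benjamini-Hochberg adjustment over the pairs). In 10 pairs the liver form was the higher gene in every liver library and the other form in every skin library. This count was 12 without skin replicate 1 and 15 without skin replicate 3. The first form of most pairs was listed as the one known in liver, so that the direction was largely given beforehand. The difference moved by more than the larger standard deviation of the groups in 4 of the 21 pairs with rescaled TPM, and in 12 each with a pseudocount of 0.1 or of 5, without changing sign. Among the 10 pairs was pyruvate kinase, where Pklr against Pkm gave 4.65, 4.85 and 4.79 in liver and -8.37, -8.49 and -7.41 in skin. The fatty acid binding proteins Fabp1 and Fabp5 gave 7.57, 7.40 and 7.44 in liver against -10.26, -5.47 and -7.78 in skin, the largest difference of the 21. Both pairs thus changed sign between liver and skin.

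The same switch was seen in glucose entry and in amino acid metabolism. The glucose transporters Slc2a2 and Slc2a1 gave 4.00, 4.37 and 4.13 in liver against -5.44, -5.53 and -3.23 in skin. Methionine adenosyltransferase, Mat1a against Mat2a, gave 5.09, 4.69 and 4.74 in liver against -8.55, -9.76 and -5.93 in skin. Carbamoyl phosphate synthetase, with the urea cycle enzyme Cps1 against Cad of pyrimidine synthesis, gave 8.90, 8.73 and 8.47 in liver against -1.05, -1.53 and -1.32 in skin. In 8 pairs the leading form differed among the skin libraries. Arginase was one, as Arg1 against Arg2 gave 10.18, 10.12 and 10.18 in liver and -3.43, -2.07 and 0.97 in skin, where replicate 3 alone was above 0. In 3 pairs the first form led in all 6 libraries: the desaturases Scd1 and Scd2, the retinaldehyde dehydrogenases Aldh1a1 and Aldh1a2, and the proteasome subunits Psmb6 and Psmb9. The last pair was the 1 that overlapped, with 3.32, 2.81 and 3.33 in liver and 4.32, 3.09 and 2.84 in skin (exact permutation p = 0.8).

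**Figure D4:**
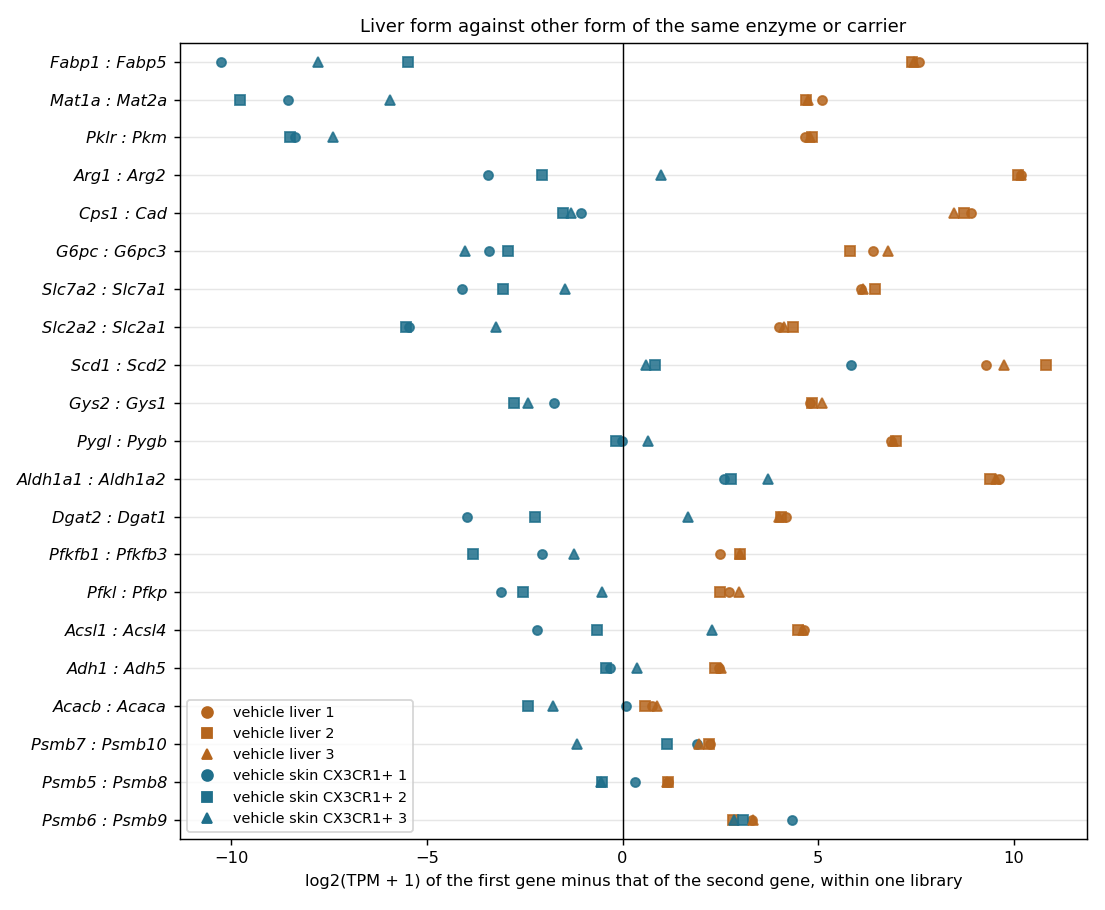
log2(TPM + 1) of the liver form minus that of the other form within each library, for 21 gene pairs, with 3 liver (brown) and 3 skin (blue) libraries and a line at 0 where both forms are equal. For the proteasome pairs the first form is the standard subunit and the other the immunoproteasome subunit. The liver points lie to the right of the skin points in 20 pairs, and for 10 pairs they lie on opposite sides of 0.

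Iron handling genes lay on both sides. Of 22 genes, 21 were tested, 7 were higher in liver and 6 in skin (11 and 6 with median-ratio scaling). Hamp, the hormone hepcidin that limits iron uptake, had 2889, 2621 and 2915 TPM in liver and 85, 11.4 and 0 in skin, 8.10 log2 units (SE 1.47, adjusted p = 0.00351) higher in liver. Hpx, the plasma scavenger of heme, had 3255, 3577 and 3601 TPM in liver against 0.54, 1.24 and 0 in skin, 11.17 log2 units (SE 0.34, adjusted p = 2.59e-06) higher in liver. The ferritin chains that store iron were among the most abundant genes of skin. Fth1 had 1320.0, 1223 and 1387 TPM in liver and 19986, 15564 and 8932 in skin, 3.42 log2 units (SE 0.32, adjusted p = 0.000243) higher in skin, and Ftl1 2590.5, 2162 and 2539.8 TPM in liver against 21308, 15455 and 20012 in skin, 2.95 log2 units (SE 0.22, adjusted p = 9.33e-05) higher. Hmox1, which breaks heme down, had 2.13, 2.82 and 2.69 TPM in liver against 289, 1951 and 234 in skin, 7.18 log2 units (SE 0.80, adjusted p = 0.000467) higher in skin, and Slc11a1, an iron and manganese exporter of phagosomes, 0.4, 1.93 and 1.85 TPM in liver against 42.4, 168 and 26.6 in skin. Both ferritin genes have many processed copies in the genome, so that reads may have been shared among them.

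Every listed gene of antigen presentation by MHC class II was on the skin side. All 15 genes were higher in skin, and all 15 held. Together they took 6.6% ± 0.625 (SD, n = 3) of the TPM in skin and 0.00329% ± 0.00146 (SD, n = 3) in liver. Cd74, the invariant chain that guards the binding groove, had 4.66, 13.4 and 8.48 TPM in liver and 30414, 31489 and 26765 in skin, 11.65 log2 units (SE 0.36, adjusted p = 2.87e-06) higher, and was the most abundant named gene of the skin cells. H2-Ab1, a class II beta chain, had 1.32, 5.19 and 3.73 TPM in liver against 16569, 13547 and 15705 in skin, 11.87 log2 units (SE 0.39, adjusted p = 3.41e-06) higher, and H2-Aa, an alpha chain, 1.67, 6.04 and 4.04 TPM in liver against 11375, 11489.9 and 7496 in skin. These genes varied little among the skin libraries. Costimulatory genes varied more, as Cd86, named after its values were seen, had 515, 859 and 69.7 TPM in skin.

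Class I presentation, which nearly all cells perform, differed far less. Of 13 genes, 8 were higher in skin and none in liver, but only H2-D1 held, and the counts were 1 in skin and 2 in liver with median-ratio scaling. Without liver replicate 1 or 3, 4 were higher in skin. Over all tested genes 47.6% were higher in skin, and the median of the class I list lay 0.07 towards skin relative to that of all genes. H2-D1 had 277, 305 and 305 TPM in liver and 3009, 3184 and 3067 in skin, 3.38 log2 units (SE 0.18, adjusted p = 2.66e-05) higher in skin. H2-K1, the other classical chain, had 1443, 1609 and 1607 TPM in liver against 1864, 2388 and 1681 in skin and was not called, but it was called 1.02 higher in liver with median-ratio scaling (adjusted p = 0.0381). B2m, the light chain, had 2743, 2893 and 2943 TPM in liver against 7181, 5683 and 6631 in skin, 1.18 log2 units (SE 0.19, adjusted p = 0.0023) higher in skin with TPM, while with median-ratio scaling it stood 0.18 higher in liver and was not called. Immunoproteasome subunits trim peptides for this route. Psmb8 had 28.3, 28.4 and 30.3 TPM in liver against 153, 215 and 558 in skin, 3.14 log2 units (SE 0.48, adjusted p = 0.00174) higher in skin, with skin replicate 3 highest, a call that did not hold.

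Lysosomal and recognition genes were on the skin side with many exceptions. Of 27 lysosomal genes, 17 were higher in skin and none in liver, and 12 held. With median-ratio scaling 5 were higher in liver and 12 in skin. Over all tested genes 47.6% were higher in skin and 24.8% held, and the median of the lysosomal list lay 0.95 towards skin relative to that of all genes. Cd63, a membrane protein of late endosomes, had 0.86, 0.57 and 1.05 TPM in liver and 629.7, 1732 and 1167 in skin, 9.22 log2 units (SE 0.41, adjusted p = 1.14e-05) higher. Ctsk, a protease that degrades collagen, had 0.09, 0.04 and 0.04 TPM in liver against 123, 169 and 108 in skin, 6.97 log2 units (SE 0.30, adjusted p = 1.06e-05) higher, and Lgmn, an asparagine protease, 8.64, 12 and 9.72 TPM in liver against 181, 583 and 134 in skin. Of 30 receptors for microbes, lipids and antibodies, 27 were tested, 22 were higher in skin and 1 in liver. Cd14, the co-receptor for endotoxin, had 0.6, 0.82 and 0.47 TPM in liver against 1348, 1838 and 365 in skin, 9.22 log2 units (SE 0.61, adjusted p = 6e-05) higher in skin, and Fcgr3, an antibody receptor, 0.46, 1.47 and 0.98 TPM in liver against 140.3, 421 and 839 in skin, 7.58 log2 units (SE 0.65, adjusted p = 0.000169) higher. Clec4e, which senses mycobacterial glycolipid, was listed at 0 in all liver libraries and had 365, 265 and 15.4 TPM in skin. The gene on the liver side was Scarb1, the receptor for high-density lipoprotein, with 53.2, 53.8 and 58.4 in liver and 12.1, 15.1 and 20.1 in skin, 1.77 log2 units (SE 0.28, adjusted p = 0.00188) higher in liver.

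Chemokine genes were mostly on the skin side. Of 30 chemokine and receptor genes, 28 were tested, 25 were higher in skin and 2 in liver, and the list took 1.87%, 2.81% and 4.39% of the TPM in skin against 0.0189% ± 0.000418 (SD, n = 3) in liver. Ccl8, a ligand that draws monocytes and T cells, was listed at 0 in all liver libraries and had 4607, 11475 and 29872 TPM in skin (adjusted p = 1.53e-05), highest in skin replicate 3 and lowest in replicate 1. Ccl7 had 0, 0 and 0.24 TPM in liver against 2259, 3459 and 2221 in skin, 11.24 log2 units (SE 0.28, adjusted p = 1.98e-06) higher in skin, and Ccl4, also listed at 0 in liver, had 2923, 1736 and 2126. Cxcl12, which keeps stem cells and lymphocytes in place, went the other way, with 89.2, 57 and 78.6 in liver and 21.1, 13.6 and 5.16 in skin, 2.57 log2 units (SE 0.50, adjusted p = 0.00485) higher in liver. Cxcl9, an interferon-induced ligand, had 10.7, 17.8 and 13.5 TPM in liver against 2.88, 5.29 and 3.39 in skin, 1.63 log2 units (SE 0.36, adjusted p = 0.00753) higher in liver.

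Cytokine genes were on the skin side in 22 of 24 tested (26 listed), with none higher in liver. Il1b, the proinflammatory cytokine IL-1 beta, had 0.14, 0.33 and 0.3 TPM in liver and 4718, 3653 and 431 in skin, 10.60 log2 units (SE 0.89, adjusted p = 0.000151) higher. Its antagonist Il1rn had 1.09, 0.86 and 1.24 TPM in liver against 1277, 846 and 86.9 in skin, 7.79 log2 units (SE 0.97, adjusted p = 0.000739) higher, and the decoy receptor Il1r2, listed at 0 in liver, 736, 603 and 129. All 3 were lowest in skin replicate 3. The list took 0.967%, 0.84% and 0.192% of the TPM in skin and 0.00476% ± 0.000129 (SD, n = 3) in liver.

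Immediate-early and heat shock genes, which the dissociation of tissue into cells can raise, were also mostly higher in skin. Of 25 genes, 24 were tested and 19 were higher in skin, none in liver, and the list took 1.24%, 1.74% and 0.705% of the TPM in skin against 0.101%, 0.0791% and 0.0929% in liver. Hspa1a, an inducible HSP70 gene, had 0.1, 0.31 and 0.24 TPM in liver and 462, 1358 and 554 in skin, 9.18 log2 units (SE 0.44, adjusted p = 1.64e-05) higher. Ier3 had 1.05, 0.1 and 0.25 TPM in liver against 666, 861 and 236 in skin, 8.51 log2 units (SE 0.55, adjusted p = 5.48e-05) higher. Skin cells were collected from tissue, and how the liver material was prepared is not clear from the labels, so that handling and tissue cannot be told apart. The part of handling in the cytokine and chemokine levels was not tested.

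**Figure D5:**
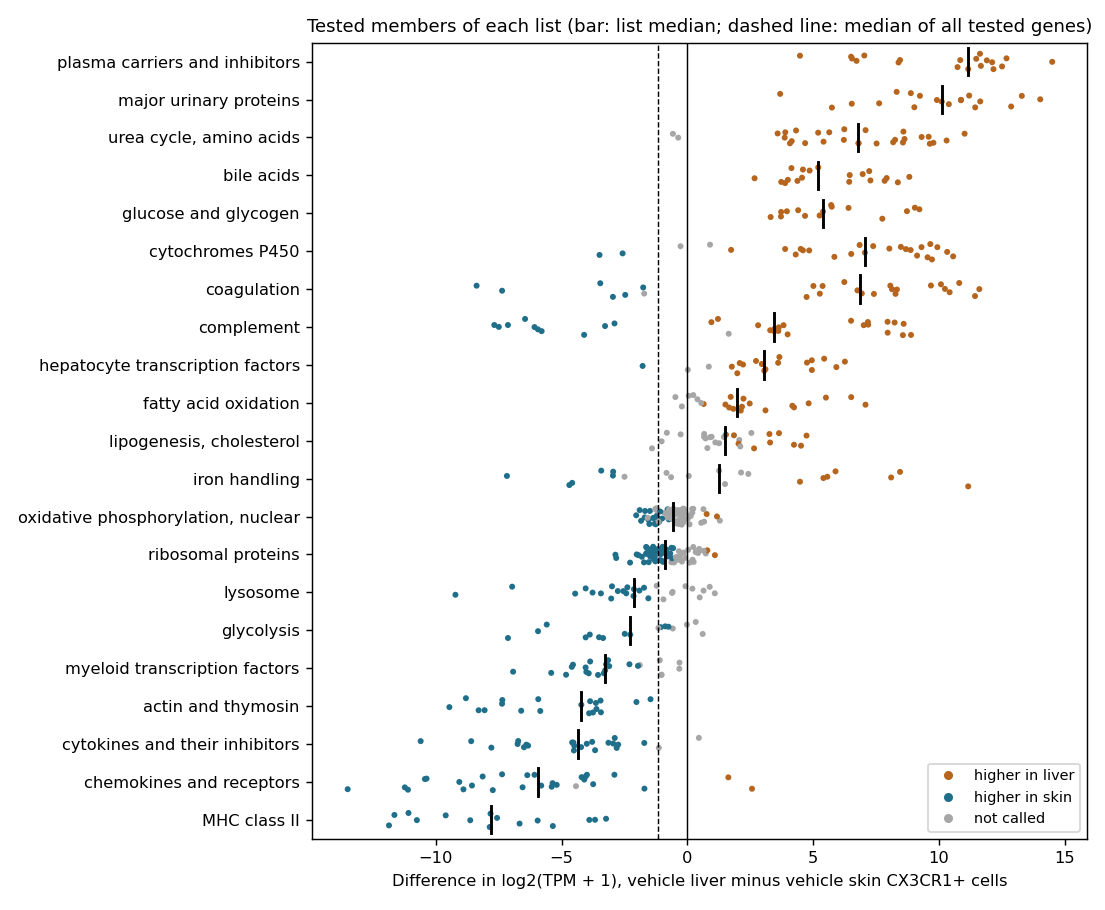
Difference in log2(TPM + 1), liver minus skin, for the tested members of 21 function lists, with 1 point per gene (brown higher in liver, blue higher in skin, grey not called), a bar at each list's median, a solid line at 0 and a dashed line at the median of all tested genes, -1.17. By median, plasma carriers lie farthest to the right and MHC class II genes farthest to the left, while coagulation, complement and iron genes spread over both sides.

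Genes of cell shape and of division were also on the skin side. All 19 genes of actin, thymosin and the leukocyte cytoskeleton were higher in skin and 16 held. Tmsb4x, thymosin beta 4, which binds free actin, had 15.1, 27 and 21.5 TPM in liver and 14507, 14070.0 and 17493 in skin, 9.46 log2 units (SE 0.27, adjusted p = 2.5e-06) higher. Capg, a filament capping protein of macrophages, had 0.15, 0.16 and 0.32 TPM in liver against 320.3, 473 and 1035 in skin, 8.81 log2 units (SE 0.46, adjusted p = 2.17e-05) higher, and Actb, beta actin, 308, 143 and 249.7 TPM in liver against 4746, 5765 and 1003 in skin, 3.75 log2 units (SE 0.70, adjusted p = 0.00391) higher. Of 23 cell cycle genes, 19 were tested and all 19 were higher in skin, 16 of them held. Ccnd2, a cyclin of the first growth phase, had 0.14, 0.24 and 0.11 TPM in liver against 227, 154 and 332 in skin, 7.61 log2 units (SE 0.35, adjusted p = 1.41e-05) higher, and Cdkn1a, the inhibitor p21, 37.3, 38.7 and 36.7 TPM in liver against 1757, 843 and 832 in skin, 4.80 log2 units (SE 0.34, adjusted p = 7.98e-05) higher. Mki67, a marker of dividing cells named after its values were seen, did not pass the filter and had 2.63, 5.38 and 0.17 TPM in skin. Of 22 interferon response genes, 16 were higher in skin and 1 in liver (3 in liver without skin replicate 3). Of the 16 calls in skin 11 held, and with median-ratio scaling the counts were 11 in skin and 3 in liver. Over all tested genes 47.6% were higher in skin, and the median of the interferon list lay 1.28 towards skin relative to that of all genes. Isg15, a ubiquitin-like protein, had 13.8, 23.6 and 15 TPM in liver against 606, 498 and 227 in skin, 4.51 log2 units (SE 0.43, adjusted p = 0.000258) higher in skin, and Iigp1, a GTPase, 141, 183 and 147 TPM in liver against 29.2, 36.5 and 7.88 in skin, 2.86 log2 units (SE 0.56, adjusted p = 0.0047) higher in liver.

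Some genes stood at a like level in both materials with TPM, but which ones depended on the scaling. With TPM the 95% interval of the difference lay within 1 log2 unit of 0 for 443 genes (3.44%). Of these 443, 10 met that rule with median-ratio scaling, where 306 were called higher in liver, and 8 met it with quantile normalization, where 362 were. The most abundant of them was H2-K1, followed by Gapdh, and the 10 most abundant also included the ribosomal protein genes Rps2, Rpl23a, Rpl26, Rpl13a and Rps24. With median-ratio scaling H2-K1, Gapdh, Rps2 (1.39, adjusted p = 0.0126) and Rps24 (1.69, adjusted p = 0.00608) were called higher in liver, and Rps24 also with quantile normalization (0.98, adjusted p = 0.00928). Rpl23a had 659, 676 and 651 TPM in liver and 1052, 832 and 899.6 in skin. Among 10 listed genes known for a nearly constant level across tissues, 8 were higher in skin with TPM, and 3 of these calls held. Over all tested genes 47.6% were higher in skin and 24.8% held. Of 76 ribosomal protein genes, 45 were higher in skin and 2 in liver with TPM, 2 and 21 with median-ratio scaling, and 15 and 15 with quantile normalization, so that no direction held for the family. Rps21 was higher in liver under each scaling, with 477, 474 and 522 TPM in liver and 212, 210.0 and 270.3 in skin, 1.09 log2 units (SE 0.21, adjusted p = 0.00445). Rpl13 was higher in skin under each, with 147, 153 and 176 TPM in liver against 1131, 939 and 1452 in skin, 2.86 log2 units (SE 0.24, adjusted p = 0.000152). Of 75 nuclear genes of the respiratory chain, 19 were higher in skin and 2 in liver with TPM, and 0 and 14 with median-ratio scaling. Without any 1 liver library 7 or 8 were higher in skin in place of 19, and without skin replicate 3 those higher in liver numbered 8 in both the respiratory and the ribosomal list.

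Genes of the respiratory chain that mitochondrial DNA encodes were set apart from these nuclear ones. They took 17.9% ± 1.2 (SD, n = 3) of the TPM in liver and 1.87% ± 0.67 (SD, n = 3) in skin, and 11 of 13 were higher in liver. mt-Atp8 had 92801, 80272 and 80479 TPM in liver and 2579.8, 1245 and 1811 in skin, 5.55 log2 units (SE 0.30, adjusted p = 2.66e-05) higher in liver, and mt-Nd4l 11158, 11592 and 10124 TPM in liver against 23.9, 0 and 8.98 in skin, 10.77 log2 units (SE 1.10, adjusted p = 0.000332) higher. mt-Co2 went the other way with TPM, with 1347, 736 and 639 in liver and 2822, 1876 and 1859 in skin, 1.32 log2 units (SE 0.35, adjusted p = 0.0162) higher in skin, but stood 0.04 higher in liver with median-ratio scaling and was not called. With TPM the call of mt-Co2 was lost without liver replicate 2 (adjusted p = 0.0622) or 3 (0.0612) and without skin replicate 1 (0.0514). Among these genes mt-Atp6, named after its values were seen, was not called (adjusted p = 0.125). It had 4273, 3937 and 3778 TPM in liver and 9225, 4422 and 5550 in skin. Mitochondrial transcripts overlap or lie side by side and have near copies in the nuclear genome, so that levels of single genes may be shared among them. The list's sum, of which mt-Atp8 was the largest part in liver, and its count carry the same limit.

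The series title names midkine, and midkine, its relative and their receptors were examined in both materials. Mdk, which encodes midkine, was listed at 0 in all liver libraries and had 0.93, 1.24 and 3.64 TPM in skin, too low for the test. Ptn, the related ligand pleiotrophin, was listed at 0 in liver and had 11.5, 32.2 and 24.4 in skin (adjusted p = 0.000252). The receptor gene Lrp1 had 109.7, 136 and 125 TPM in liver and 24.7, 86.6 and 16.7 in skin, 1.86 log2 units (SE 0.59, adjusted p = 0.031) higher in liver. That call was lost without any 1 liver library, with adjusted p of 0.0771, 0.095 and 0.0855, and without skin replicate 1 (0.103) or 3 (0.0529). Syndecans, which carry the sugar chains that midkine binds, differed by member. Sdc2 had 60.1, 64.3 and 59.3 TPM in liver against 2.97, 15.3 and 3.75 in skin, 3.20 log2 units (SE 0.56, adjusted p = 0.00292) higher in liver, and Sdc3 1.18, 2.42 and 1.77 TPM in liver against 22.7, 78.4 and 8.72 in skin, 3.26 log2 units (SE 0.76, adjusted p = 0.00947) higher in skin. Of 15 genes in this list, 10 were tested, with 3 higher in liver and 3 in skin. Without any 1 liver library, or without skin replicate 1, 1 was higher in liver, and without skin replicate 3, 5 were higher in skin.

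Itch mediators, neurotrophic factors and purine receptors were low or listed at 0 in liver. Of 26 such genes, 12 passed the filter and all 12 were higher in skin, where any gene at 0 in liver had to differ to pass. Alox5ap, needed for leukotriene synthesis, had 0.3, 0.18 and 0.67 TPM in liver and 109, 224 and 242 in skin, 7.05 log2 units (SE 0.40, adjusted p = 3.23e-05) higher, and P2rx7, a receptor for extracellular ATP, 0.12, 0.36 and 0.22 TPM in liver against 10.4, 117 and 62 in skin, 5.16 log2 units (SE 0.84, adjusted p = 0.00221) higher. Ptgs2, the inducible prostaglandin synthase, was listed at 0 in liver and had 163, 92.5 and 1.41 in skin, with replicate 3 far below the others (adjusted p = 0.0259). That call was lost without any 1 liver library, with adjusted p of 0.0714, 0.0717 and 0.0659, and without skin replicate 1 (0.0888) or 2 (0.0943). Il31, an itch cytokine of T cells named after its values were seen, was listed at 0 in all 6 libraries.

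Genes of the sex chromosomes differed among the libraries, for which the labels give no sex. Ddx3y, on the Y chromosome, had 14.1, 12.5 and 12.5 TPM in liver and 0, 1.13 and 5.52 in skin, and Xist, the RNA of the inactive X chromosome, 0, 0.01 and 0.01 TPM in liver against 4.54, 7.15 and 0 in skin. Skin replicate 1 thus had Xist with no Ddx3y, replicate 2 had both, and replicate 3 had Ddx3y with no Xist. Sex therefore moved in part with the groups, and its part in the differences was not tested.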

How the data were processed

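The authors deposited 1 table of TPM values for 57180 mouse gene IDs in 12 libraries, 6 of which were used here. The submitters' processing notes name fastp, HISAT2, StringTie, RSEM and the build GRCm39, without roles or versions, and no counts or depths were used. Per the labels, RNA was extracted with TRIzol and poly(A) selected for all libraries. A symbol was matched for 51884 IDs, and 2 listed genes were not matched. Genes that reached 1 TPM in 3 or more of 6 libraries were fitted with limma 3.58.1 (R 4.3.3) on log2(TPM + 1), with empirical Bayes variances shared between both groups, no covariate and Benjamini-Hochberg adjustment over all tested genes. The fit was tried on simulated data in which both groups had the same spread and few genes changed. Unlike these data, that setting does not cover unequal spreads or a shift of most genes. The libraries, gene lists and named genes were chosen with earlier results of these data known. Named genes were the 10 with the largest called difference in each direction, the 10 most abundant in each material, the 10 most abundant at a like level, a preset list, the leading called members of each gene list, the isozyme pairs and the defining cell type markers. A named gene outside this rule is said to be chosen after its values were seen. For a sum, share or ratio, groups were compared by a two-sided exact permutation test. An adjusted p below refers to limma. Promoter windows came from RefSeq on GRCm38.p6, a different build from that of the table, and were matched by symbol. P-values measure the spread between these samples. The alternatives tried were other pseudocounts, filters, scalings and fits, a replicate block, and leaving out each library. Some items are not reported here.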

Additional observations from a re-analysis of the deposited data

How the results depend on the processing

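Genes called higher in liver and in skin (1756 and 6127) numbered 3358 and 3645 with median-ratio scaling, 3508 and 3303 with quantile normalization, and 1111 and 3475 when a difference above 1 log2 unit was required. Those differing by at least 3 log2 units (731 and 1997) numbered 1097 and 3418 with a pseudocount of 0.1, 473 and 877 with one of 5, 1126 and 1111 with median-ratio scaling, and 1129 and 1057 with quantile normalization. Leaving out 1 library gave 1434 to 1993 genes higher in liver and 4681 to 8114 in skin. The 443 genes of like level numbered 2887 with a pseudocount of 5, and 113, 128 and 94 without liver replicates 1, 2 and 3, 1210 without skin replicate 3, and, in alternatives chosen after seeing the data, 848 with median-ratio scaling and 953 with quantile normalization, which kept 10 and 8 of the 443. The replicate numbers share only a number: same-numbered samples deviated with correlations of -2e-04, 0.0564 and 0.0672, and with the replicate block the calls were 1647 and 5885. After rescaling, the number of genes that hold 50% of the TPM differed by -300.3 (liver minus skin). The share of TPM in predicted genes, unnamed genes and pseudogenes differed by -1.26 percentage points (liver minus skin), and by -3.57 to 1.67 when 1 library was left out, above 0 without skin replicate 3 alone. Of single results, Psmb6 against Psmb9 differed by -0.27 (liver minus skin), and by -0.55 to 0.19 when 1 library was left out, above 0 without skin replicate 1 alone. With median-ratio scaling B2m stood at 0.18 and mt-Co2 at 0.0376, both below 0 with TPM. Some lists with no gene on one side gained 1: without skin replicate 3, 1 urea and amino acid gene and 1 lipid synthesis gene were higher in skin, and without skin replicate 2, 1 lysosomal gene was higher in liver. Of 276 named genes in the fit, 258 were called, and 207 were called under every setting run. Depth is unknown, so that a gene listed at 0 may be present below detection. The cause of these changes was not tested.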

Other observations

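Within liver, replicate 2 differed from the others for a few stress and metal response genes, chosen after their values were seen. Igfbp1, a secreted binding protein that fasting raises, had 733, 128 and 486 TPM in liver replicates 1 to 3, and Atf3, a stress-induced factor, 105, 0.61 and 62.3. Mt1 and Mt2, the metallothioneins, had 704, 54.5 and 471, and 681, 46.2 and 430.1 TPM, in that order. Replicate 2 was the lowest for all 4 genes, and with 3 libraries no test of 1 library was made. In skin, Igfbp1 was listed at 0 in every library, and Atf3 had 210.1, 883 and 329 TPM.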
